A study of Homo sapiens with 6 samples.

Results

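The p38 mitogen-activated protein kinases, the kinases that switch them on and the kinases they switch on in turn are described here by their transcripts in T24 cells, a human bladder cancer cell line. The group holds 9 genes of the 56303 in the deposited count table: MAP3K5, MAP2K3, MAP2K6, MAPK14, MAPK11, MAPK12, MAPK13, MAPKAPK2 and MAPKAPK3. They were selected on their values in the same contrast that is described below, siFBXL6 against siNC, including paralogs that differed in opposite directions. Their values are therefore given as a description. Where calls from the fit over all genes are stated for them, nothing is read from those calls. All 9 passed the filter on low counts, which kept 21298 genes.

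The cells carried either a control siRNA (siNC, genotype labelled WT) or an siRNA against FBXL6 (siFBXL6, labelled FBXL6 knockdown), with 3 libraries each, taken 48 h after transfection and all under the same batch label. FBXL6 encodes an F-box protein, the substrate-binding part of an SCF ubiquitin ligase. The purpose stated for the experiment was to look for what lies downstream of FBXL6 in bladder cancer cells. Library totals were 58646515, 60967902 and 56814946 counts in siNC and 60968158, 60898556 and 60754015 in siFBXL6. The libraries are labelled siFBXL6-1, siFBXL6-2 and siFBXL6-3. A pair of siRNAs against FBXL6 carries the first of these names and the second. The numbers were taken here as replicate numbers, and whether they name the siRNA is not known. Nothing in the labels says that the libraries came from separate cultures, and p-values therefore measure the spread between these samples, which may be technical.

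The p38 cascade relays stress and inflammatory signals. A MAP3 kinase such as ASK1, encoded by MAP3K5, phosphorylates the MAP2 kinases MKK3 and MKK6, encoded by MAP2K3 and MAP2K6, which then phosphorylate a threonine and a tyrosine in the activation loop of the p38 kinases. The p38 proteins are alpha (MAPK14), beta (MAPK11), gamma (MAPK12) and delta (MAPK13). Among the targets of p38 alpha and beta are the kinases MK2 and MK3, encoded by MAPKAPK2 and MAPKAPK3, through which p38 stabilises cytokine mRNAs with AU-rich elements. Activity in this cascade is set by phosphorylation, which transcript counts do not measure.

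FBXL6 itself was counted at 362, 414 and 398 reads in siNC and at 398, 344 and 350 in the libraries labelled siFBXL6. As CPM, the counts scaled to library size with TMM factors, these were 6.19, 6.70 and 6.93 against 6.58, 5.70 and 5.81, so the groups overlapped. The log2 fold change was -0.13 ± 0.09 (SE; adjusted p = 0.247 by edgeR's quasi-likelihood test with Benjamini-Hochberg adjustment). With 1 library left out, it ran from -0.20 (without siFBXL6 replicate 1) to -0.09 (without siFBXL6 replicate 2). Every SE of a log2 fold change is its absolute value over the square root of the F statistic of this test. The variance in that statistic borrows from other genes, so the SE can be smaller than the spread of the gene's own libraries would give. The name siFBXL6 is used below as the label of those libraries. Of the 3375 exon bases that the table counts for FBXL6, 1248 (37.0%) are also exon of another gene, 1069 of them of SLC52A2 on the opposite strand and 179 of GS1-393G12.13 on the same strand, and the strand setting of the counting is not given in the sources used here. ACTB, a housekeeping actin, averaged 1170 CPM in both groups (SD 24.5 in siNC and 25.8 in siFBXL6).

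Marker genes of several cell types were read as a description. These lists cannot tell T24 from another epithelial cell line, and the name T24 comes from the labels. The epithelial markers KRT7, KRT8, KRT18, KRT19, EPCAM and CDH1 each had at least 6777 counts in every library, and KRT7 was the most abundant at 1040 ± 21.1 CPM in siNC and 983 ± 9.06 in siFBXL6 (SD, n = 3). Of the 6, KRT8, KRT19, EPCAM and KRT7 fell, by 0.29, 0.15, 0.15 and 0.08 on the log2 scale, and KRT7 did not pass without siFBXL6 replicate 1 (-0.08) or replicate 3 (-0.07). CDH1 rose by 0.16, and KRT18 had a log2 fold change of 0.00. The summed level of the list was 3410, 3300 and 3400 CPM in siNC and 3090, 3070 and 3080 in siFBXL6. Of 8 urothelial markers, PPARG was the most abundant (66.5 ± 1.38 CPM in siNC), whereas UPK1A had no count in any library and UPK1B, UPK3A and KRT20 had at most 6. GATA3 fell by 0.53 and FOXA1 fell by 0.27 on the log2 scale. The urothelial sum was 94.5, 92.2 and 97.3 CPM in siNC and 83.8, 86.2 and 85.4 in siFBXL6. Blood and immune markers summed to between 0.752 and 1.52 CPM over the 6 libraries, and fibroblast markers to between 0.819 and 1.76. The endothelial sum was 1.85, 1.59 and 1.72 CPM in siNC and 2.38, 2.15 and 3.20 in siFBXL6, a difference carried by PECAM1 (0.573 ± 0.126 against 1.39 ± 0.365 CPM). The part of these marker differences in the results below was not tested. In bulk RNA, fewer cells of a kind and less RNA per cell cannot be told apart.

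Along the cascade, MAP2K6 was lower and the other 8 genes were higher in the libraries labelled siFBXL6. Among those 8, the difference of MAPK14 did not pass an adjusted p under 0.05. MAPK11 and MAP2K6 differed most, by 2.57-fold upward and 2.52-fold downward. MAP2K3, MAPKAPK3 and MAPK13 followed at 1.41-fold, 1.34-fold and 1.30-fold, and MAPK12, MAPK14, MAP3K5 and MAPKAPK2 were within 1.11-fold of siNC. For all 9 genes the siNC and siFBXL6 libraries were apart, as they were for 48.2% of all genes tested. At an adjusted p under 0.05, 8 of the 9 were called, 7 higher and 1 lower, where 40.2% of all genes tested were called, 20.5% higher and 19.8% lower. That balance depended on the scaling, with 4360 higher and 4209 lower here but 3930 and 4777 with library size alone and 3972 and 4718 with upper-quartile factors. The calls of MAP3K5, MAPKAPK2 and MAPK12 were lost under 4, 5 and 2 of 13 alternative settings. Nothing is read from these counts, because this contrast chose the genes.

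MAP3K5 encodes ASK1, a kinase held inactive by reduced thioredoxin and released by oxidative stress. It gave 57.0, 56.3 and 58.1 CPM in siNC and 60.4, 62.3 and 61.1 in siFBXL6. The siFBXL6 libraries were all slightly above those of siNC, with a log2 fold change of 0.10 ± 0.03 (SE). The 10th and 90th percentiles of the log2 fold change over all genes tested were -0.39 and 0.43, so this difference lay well inside the usual range.

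MKK3 and MKK6 are the dual-specificity kinases closest upstream of p38, and their genes differed in opposite directions. MAP2K3 had 14.4, 18.0 and 16.8 CPM in siNC and 23.4, 23.2 and 22.9 in siFBXL6, a log2 fold change of 0.50 ± 0.06 (SE). The siFBXL6 values were close together and all above the highest siNC value, and the siNC libraries were more scattered. MAP2K6 had 162, 161 and 182 counts in siNC and 70, 86 and 48 in siFBXL6, or 2.77, 2.61 and 3.17 against 1.16, 1.42 and 0.796 CPM. Every siFBXL6 value was below every siNC value, and the log2 fold change was -1.34 ± 0.17 (SE), the 102nd lowest of the 21298 genes tested. MAP2K6 rested on the fewest counts of the 9 genes in siFBXL6.

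Within each library the ratio of MAP2K6 to MAP2K3 counts needs no scaling between libraries. It was 0.192, 0.145 and 0.188 in siNC and 0.0494, 0.0613 and 0.0348 in siFBXL6. The lowest siNC ratio was thus above the highest siFBXL6 ratio, and the log2 ratio differed by -1.88. Per kilobase of exon, the mean ratio was 0.108 in siNC and 0.030 in siFBXL6. MAP2K6 made up 9.74% ± 1.33 (SD) of the summed level of the pair per kilobase in siNC and 2.91% ± 0.774 in siFBXL6, and MAP2K3 made up the remainder, while their sum was 4.81 CPM per kilobase in siNC and 6.31 in siFBXL6. With canonical transcript lengths, a choice made after seeing the data, the MAP2K6 share was 2.86% ± 0.418 in siNC and 0.81% ± 0.22 in siFBXL6. The canonical MAP2K6 transcript, at 13.405 kb, is longer than the 6.125 kb of exon that the table counts.

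MAP2K3 counts are uncertain in their absolute size. When the canonical GENCODE transcript of each of the 9 genes was aligned to GRCh38, only MAP2K3 had a second match of at least 90% identity: 1429 of its 2256 bases matched a stretch of chromosome 17 on the minus strand with 97.2% identity. Reads from these bases can fit both places, and how the counting treated such reads is not given in the sources used here. The only gene of the table with an exon in that stretch, ABC13-47656900H15.1, had 0, 0 and 2 counts in siNC and 0, 2 and 0 in siFBXL6. MAP2K3 and MAP2K6 themselves share 74.7% of their aligned coding bases, and the longest stretch common to both transcripts is 26 bases.

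Because this pair differed in opposite directions, the stretch before the transcription start is shown for both genes, from 250 to 26 bases before the start, read from RefSeq promoters on GRCh38.p14. MAP2K3 lies on the plus strand of chromosome 17 and the window is chr17:21284461-21284685, of which the last 14 bases are exon of another MAP2K3 transcript in the count table. MAP2K6 lies on the plus strand of the same chromosome, with the window chr17:69414447-69414671. Capitals mark matches on either strand to the AP-1 motif TGANTCA, the CRE motif TGACGTCA, the GC box GGGCGG, the CCAAT box, the TATA box TATAAA and the NF-kB motif, with no match overlapping another in these windows.
MAP2K3: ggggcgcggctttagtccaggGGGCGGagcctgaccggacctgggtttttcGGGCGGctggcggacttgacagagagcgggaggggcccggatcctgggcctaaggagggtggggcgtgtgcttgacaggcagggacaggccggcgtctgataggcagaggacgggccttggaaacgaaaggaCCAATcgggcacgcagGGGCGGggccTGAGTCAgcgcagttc
MAP2K6: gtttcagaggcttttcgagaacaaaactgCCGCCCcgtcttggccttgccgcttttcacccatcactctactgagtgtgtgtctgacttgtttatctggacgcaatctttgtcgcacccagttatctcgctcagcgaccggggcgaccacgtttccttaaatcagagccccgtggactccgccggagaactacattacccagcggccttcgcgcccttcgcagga
MAP2K3 held 3 GC boxes, 1 CCAAT box that began 67 bases before the start and 1 AP-1 match that began 41 bases before it. MAP2K6 held 1 GC box. Of 35116 promoter windows of the same length, 6.09% held an AP-1 match, 1.32% a CRE, 39.5% a GC box, 30.3% a CCAAT box, 8.91% a TATA box and 9.0% an NF-kB match. The share of G and C was 68.4% for MAP2K3 and 56.0% for MAP2K6, with a median of 57.8% over all windows. A match is a description of the letters and does not show that a factor binds there.

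Of the 9 genes, 8 had a promoter window in the RefSeq table with the start of the canonical transcript, and MAPKAPK2 had none. Part of some windows is exon of another transcript of the same gene in the count table, 167 of the bases for MAPK13, 117 for MAPK12, 106 for MAPK14, 38 for MAPK11 and 16 for MAP3K5. GC boxes were present in all 8 windows: 4 in MAPK11, 4 in MAPK12, 3 in MAP2K3, 2 in MAPK13, 2 in MAPKAPK3, and 1 each in MAPK14, MAP2K6 and MAP3K5. Over all promoter windows, 39.5% held one. Most of these windows were rich in G and C, which makes the motif likelier. The share was 77.3% for MAPK11, 81.8% for MAPK12, 83.6% for MAPK13, 78.2% for MAP3K5, 72.0% for MAPKAPK3 and 59.1% for MAPK14, beside a median of 57.8%. No window held a CRE or a TATA box. NF-kB matches were found for MAPK11 (2, overlapping each other), MAPK14 (3, of which 2 overlap) and MAPKAPK3 (1), and MAPK14 also held a CCAAT box. Where no match is given, those letters were not in the window, which says nothing of the factor.

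**Figure D1:**
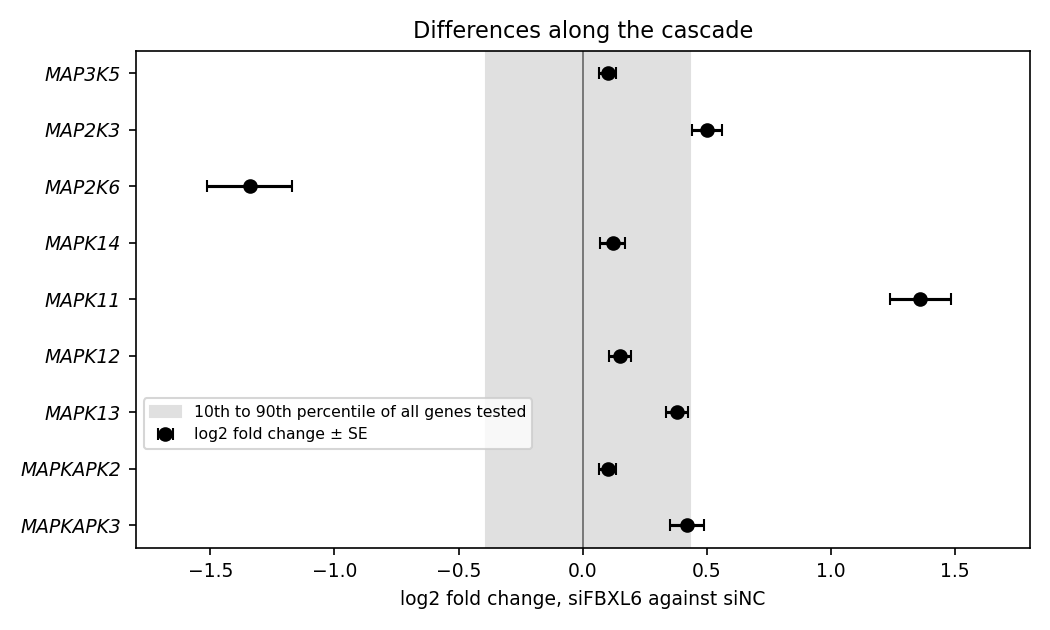
The log2 fold change of siFBXL6 against siNC is plotted for each gene in the order of the cascade, with the standard error as bars and the 10th to 90th percentile range of all genes tested as a grey band from -0.39 to 0.43. MAPK11 at 1.36, MAP2K3 at 0.50 and MAP2K6 at -1.34 lie outside the band, and the other 6 genes lie inside it.

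The 4 p38 genes code for proteins that share the activation-loop motif threonine, glycine, tyrosine, the place where MKK3 and MKK6 act. The coding bases around it show how far the paralogs can be told apart by sequencing. Each line gives 33 bases of the canonical transcript from GRCh38 with the motif codons in capitals, at chr6:36075878-36075910 on the plus strand for MAPK14, chr22:50266986-50267018 on the minus strand for MAPK11, chr22:50256137-50256169 on the minus strand for MAPK12 and chr6:36136686-36136718 on the plus strand for MAPK13, each within 1 coding exon.
MAPK14: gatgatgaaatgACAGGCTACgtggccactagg
MAPK11: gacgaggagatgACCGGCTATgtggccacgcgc
MAPK12: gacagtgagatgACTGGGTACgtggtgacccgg
MAPK13: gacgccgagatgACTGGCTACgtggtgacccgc
The threonine codon is number 180 in MAPK14, MAPK11 and MAPK13 and number 183 in MAPK12. The run of 9 bases differed between all 4 genes, although single codons were shared, such as the threonine codon of MAPK12 and MAPK13. Over the aligned coding bases, identity ran from 66.8% for MAPK14 and MAPK13 to 73.5% for MAPK12 and MAPK13, and the longest stretch common to any pair of the transcripts was 26 bases, for MAPK14 and MAPK11. MAPKAPK2 and MAPKAPK3 shared 73.1% of their aligned coding bases and at most 38 bases in a row.

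MAPK14 encodes p38 alpha, the widely expressed form. Its CPM values were 19.1, 19.6 and 19.1 in siNC and 20.6, 20.3 and 22.0 in siFBXL6. The groups lay next to each other without overlap, and the log2 fold change was 0.12 ± 0.05 (SE).

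MAPK11 encodes p38 beta, the form closest to alpha in function and also blocked by the common p38 inhibitors. Its counts were 104, 135 and 139 in siNC and 364, 333 and 294 in siFBXL6, or 1.78, 2.19 and 2.42 against 6.02, 5.51 and 4.88 CPM. The lowest siFBXL6 library was more than double the highest siNC library. The pooled SD of the log2 values within groups was 0.193. The log2 fold change of 1.36 ± 0.12 (SE) ranked 195th from the top among the genes tested, and 1.36% of them had an absolute log2 fold change at least as large.

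MAPK12 encodes p38 gamma, which binds PDZ-domain scaffolds through its C-terminal tail. It gave 26.4, 29.4 and 28.5 CPM in siNC and 31.8, 31.2 and 30.5 in siFBXL6, a log2 fold change of 0.15 ± 0.05 (SE). The highest siNC library was close to the lowest siFBXL6 library. Its count is also uncertain in size, because 2763 of the 9424 exon bases counted for MAPK12 (29.3%) are exon of HDAC10 on the same strand. HDAC10 itself had a median of 267 counts in siNC and 347 in siFBXL6.

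MAPK13 encodes p38 delta, a form prominent in epithelial tissues. It had 25.4, 25.9 and 24.7 CPM in siNC and 34.3, 32.4 and 32.3 in siFBXL6. The groups were separated by more than their own spread, and the log2 fold change was 0.38 ± 0.05 (SE).

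The p38 genes sit in a pair of neighbourhoods. MAPK11 and MAPK12 are both on the minus strand of chromosome 22 with 1887 bases between them, and MAPK14 and MAPK13 are both on the plus strand of chromosome 6 with 16572 bases between them. The table placed no other gene wholly within either gap. Neighbours did not share the size of their difference: the log2 fold changes were 1.36 for MAPK11 and 0.15 for MAPK12, and 0.38 for MAPK13 and 0.12 for MAPK14. No exon base of MAPK11, MAPK13 or MAPK14 was shared with another gene of the table.

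Count ratios to MAPK14 within each library showed how the p38 genes shifted against each other. MAPK11 to MAPK14 was 0.0929, 0.112 and 0.127 in siNC and 0.293, 0.272 and 0.222 in siFBXL6, a difference of 1.25 in the log2 ratio. For MAPK13 to MAPK14 the ratios were 1.33, 1.32 and 1.30 in siNC and 1.67, 1.60 and 1.47 in siFBXL6, a log2 difference of 0.26. Both pairs of groups were apart. The MAPK12 to MAPK14 ratios, 1.38, 1.5 and 1.5 against 1.55, 1.54 and 1.39, overlapped, and their log2 difference was 0.03.

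Scaled by the exon length in the table, the p38 genes summed to a level of 10.1 CPM per kilobase in siNC and 13.0 in siFBXL6. In siNC, MAPK13 held 34.9% ± 1.14 (SD) of that sum, MAPK12 29.5% ± 0.753, MAPK14 27.8% ± 0.608 and MAPK11 7.82% ± 1.06. In siFBXL6 the shares were 35.3% ± 0.269 for MAPK13, 25.5% ± 0.305 for MAPK12, 23.5% ± 1.43 for MAPK14 and 15.7% ± 1.29 for MAPK11. The share of MAPK11 was higher and those of MAPK12 and MAPK14 were lower in every siFBXL6 library than in any siNC library, while the share of MAPK13 overlapped.

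The order of these levels depended on the length used. The table counts 9.424 kb of exon for MAPK12, including the part shared with HDAC10, whereas its canonical transcript has 1.778 kb. With canonical lengths, a choice made after seeing the data, MAPK12 held 62.5% of the p38 level in siNC, MAPK14 18.1%, MAPK13 15.9% and MAPK11 3.48%. In siFBXL6 these shares were 58.4%, 16.6%, 17.4% and 7.54%. On this scale the MAPK13 shares did not overlap (16.7%, 15.7% and 15.4% in siNC against 17.7%, 17.3% and 17.4% in siFBXL6), and those of MAPK14 met at 17.7%. MAPK12 was thus first or second and MAPK11 last on both scales, and the share of MAPK11 was about doubled in siFBXL6 on both.

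**Figure D2:**
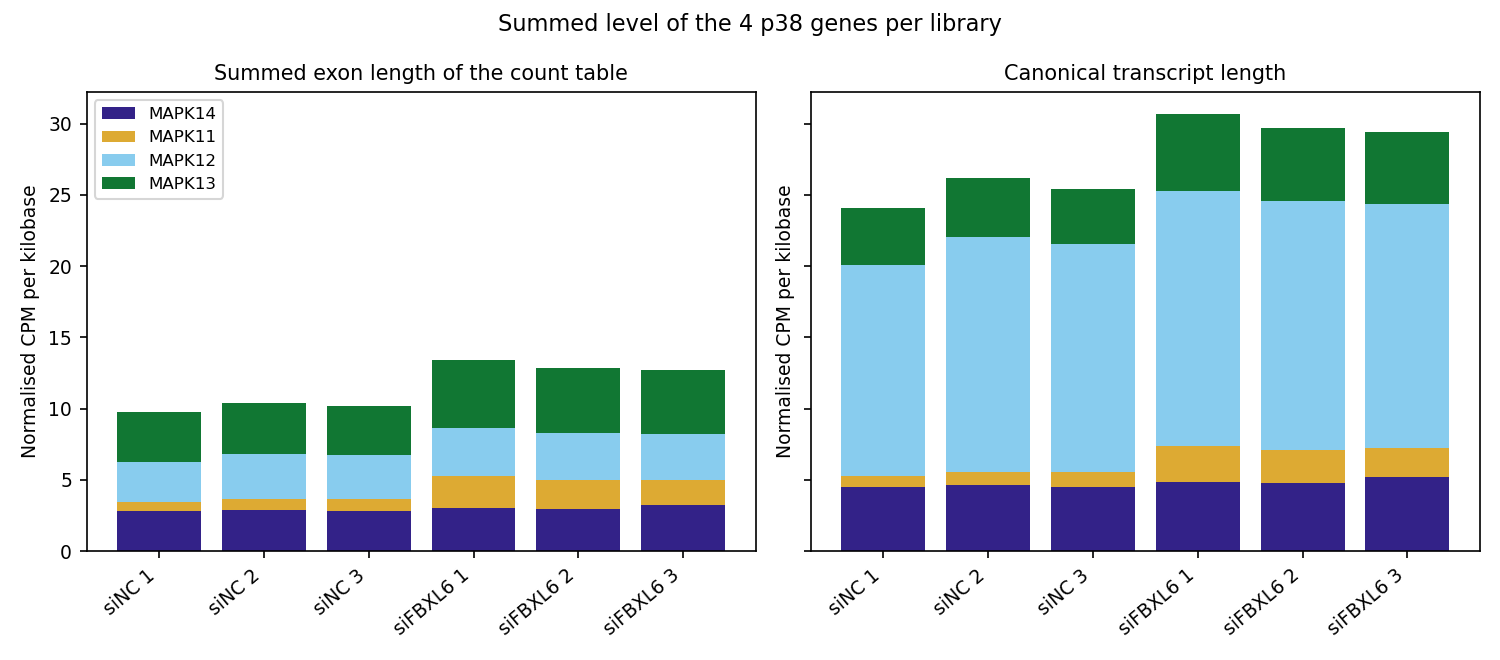
Stacked bars give the level of each p38 gene in normalised CPM per kilobase for each of the 6 libraries, with the summed exon length of the table on the left and the canonical transcript length on the right. The summed level is higher in siFBXL6 on both scales (13.0 against 10.1, and 30.0 against 25.3), and the MAPK12 segment depends on the length used.

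MAPKAPK2 and MAPKAPK3 encode the p38-activated kinases that act on RNA-binding proteins and small heat shock proteins. MAPKAPK2 had 57.4, 56.9 and 56.0 CPM in siNC and 59.2, 61.5 and 62.3 in siFBXL6, with a log2 fold change of 0.10 ± 0.04 (SE). MAPKAPK3 had 7.92, 7.98 and 8.10 CPM in siNC and 10.6, 11.1 and 10.6 in siFBXL6, with a log2 fold change of 0.42 ± 0.07 (SE). The MAPKAPK3 values were tight within each group and clearly apart between groups. The count ratio of MAPKAPK3 to MAPKAPK2 was 0.138, 0.140 and 0.144 in siNC and 0.178, 0.180 and 0.170 in siFBXL6, a log2 difference of 0.32. Of the MAPKAPK3 exon bases, 5.56% were also exon of CISH on the opposite strand, a gene with at most 98 counts in a library.

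By level per kilobase of exon in siNC, the order was MAPKAPK2 (13.5 ± 0.162 CPM per kilobase, SD), MAP3K5 (10.8 ± 0.167), MAP2K3 (4.34 ± 0.481), MAPK13 (3.52 ± 0.0841), MAPK12 (2.98 ± 0.162), MAPK14 (2.81 ± 0.0412), MAPKAPK3 (2.04 ± 0.0235), MAPK11 (0.792 ± 0.121) and MAP2K6 (0.465 ± 0.0473). The order of the means was the same in siFBXL6. It depended on the length. With canonical transcript lengths MAPK12 stood second at 15.8 ± 0.859 CPM per kilobase in siNC, above MAP3K5 (11.1 ± 0.172) and MAP2K3 (7.28 ± 0.806). On that scale MAPK14 (4.56 ± 0.0669) stood above MAPK13 (4.02 ± 0.0958) in siNC, but below it in siFBXL6 (4.96 ± 0.217 against 5.23 ± 0.178). On the exon length of the table, MAPK12 and MAPK14 were the only neighbours whose siNC libraries overlapped. MAP2K3 and MAP2K6 thus differed in opposite directions at unequal levels, with MAP2K3 at 6.13 ± 0.0778 CPM per kilobase and MAP2K6 at 0.184 ± 0.0514 in siFBXL6.

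Other genes of the pathway were taken from 10 lists with 101 genes, of which 94 were tested. Of these, 63 passed an adjusted p under 0.05 (43 higher and 20 lower), or 67.0%, beside 40.2% of all genes tested (20.5% higher and 19.8% lower). The median log2 fold change was 0.09 beside -0.01 over all genes tested. The lists were drawn up with earlier results of these data known, so a share above that of all genes is no independent support. Adjusted p-values in the following account are from edgeR's quasi-likelihood test over all genes tested.

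Upstream, 9 of 15 other MAP3 kinases of the p38 and JNK arms passed (60.0%, beside 40.2% of all genes tested), 6 higher and 3 lower, with a median log2 fold change of 0.08. MAP3K9 rose from 22.5 ± 1.40 to 31.9 ± 1.02 CPM (log2 fold change 0.50, adjusted p = 2.32e-10), MAP3K7, which encodes TAK1, rose by 0.40 and TAOK1 by 0.38 on the log2 scale. MAP3K4, the most abundant per kilobase, fell from 164 ± 5.29 to 129 ± 2.42 CPM (log2 fold change -0.34, adjusted p = 6.96e-11). TAOK3 rose by 0.27.

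Among proteins that bind MAP3 kinases, 6 of 11 passed (54.5%, beside 40.2% of all genes), 4 higher and 2 lower, with a median of 0.04. GADD45A, which binds MAP3K4, rose by 0.34, TXN, the thioredoxin that holds ASK1 inactive, by 0.27, and DAXX, an ASK1 partner, by 0.24 on the log2 scale. The log2 fold change of TXN was 0.19 without siNC replicate 1 and 0.33 without siNC replicate 2. Of 5 other MAP2 kinases, 4 passed (80.0%, beside the same 40.2%), 2 in each direction, with a median of 0.09. MAP2K1 of the ERK arm rose by 0.51 and MAP2K4, which serves JNK and p38, by 0.33, whereas MAP2K2 fell by 0.18 and MAP2K5 fell by 0.25. MAP2K7 had a log2 fold change of 0.09 (adjusted p = 0.0987).

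Of 8 other MAP kinases tested, 6 passed (75.0%, beside 40.2% of all genes), 4 higher and 2 lower, with a median of 0.07. MAPK10, which encodes JNK3, had 9.78, 9.02 and 8.90 CPM in siNC and 4.89, 4.24 and 5.64 in siFBXL6. This drop to little above 50% was the largest in the list (log2 fold change -0.91 ± 0.09 SE, adjusted p = 3.83e-10). MAPK3, which encodes ERK1, fell by 0.34, NLK rose by 0.19 and MAPK6 by 0.13, and MAPK9 had a log2 fold change of -0.01 (adjusted p = 0.845).

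All 5 scaffold genes passed, 4 higher and 1 lower, with a median of 0.17, where 40.2% of all genes passed. MAPK8IP1 was close to the threshold (log2 fold change 0.17, adjusted p = 0.0429) and did not pass under 10 of 13 alternative settings, where its log2 fold change was between 0.13 and 0.17. MAPK8IP2, which encodes the JNK-interacting protein JIP2, had 8.12, 9.05 and 8.67 CPM in siNC and 18.0, 16.4 and 16.9 in siFBXL6 (log2 fold change 0.99 ± 0.07 SE, adjusted p = 1.7e-14). The most abundant scaffold, SPAG9, rose from 405 ± 13.0 to 531 ± 13.3 CPM. CCM2, a scaffold for MKK3, rose by 0.12, and MAPK8IP3 fell by 0.20 on the log2 scale.

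Among phosphatases that act on p38, 4 of 9 passed, 3 higher and 1 lower, with a median of 0.02. This share of 44.4% was close to the 40.2% of all genes tested. The genes that rose most were DUSP8, DUSP1 and DUSP16. DUSP1, which encodes the nuclear phosphatase MKP-1, had 6.94, 10.7 and 9.37 CPM in siNC and 14.6, 13.2 and 14.0 in siFBXL6 (log2 fold change 0.63 ± 0.09 SE, adjusted p = 4.54e-07). DUSP8 rose by 0.97 from a low level of 1.5 ± 0.0801 CPM, and DUSP16 rose by 0.53. The most abundant phosphatases per kilobase did not pass: PPM1B had a log2 fold change of 0.02, DUSP10 of -0.08 and PPM1A of 0.01.

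**Figure D3:**
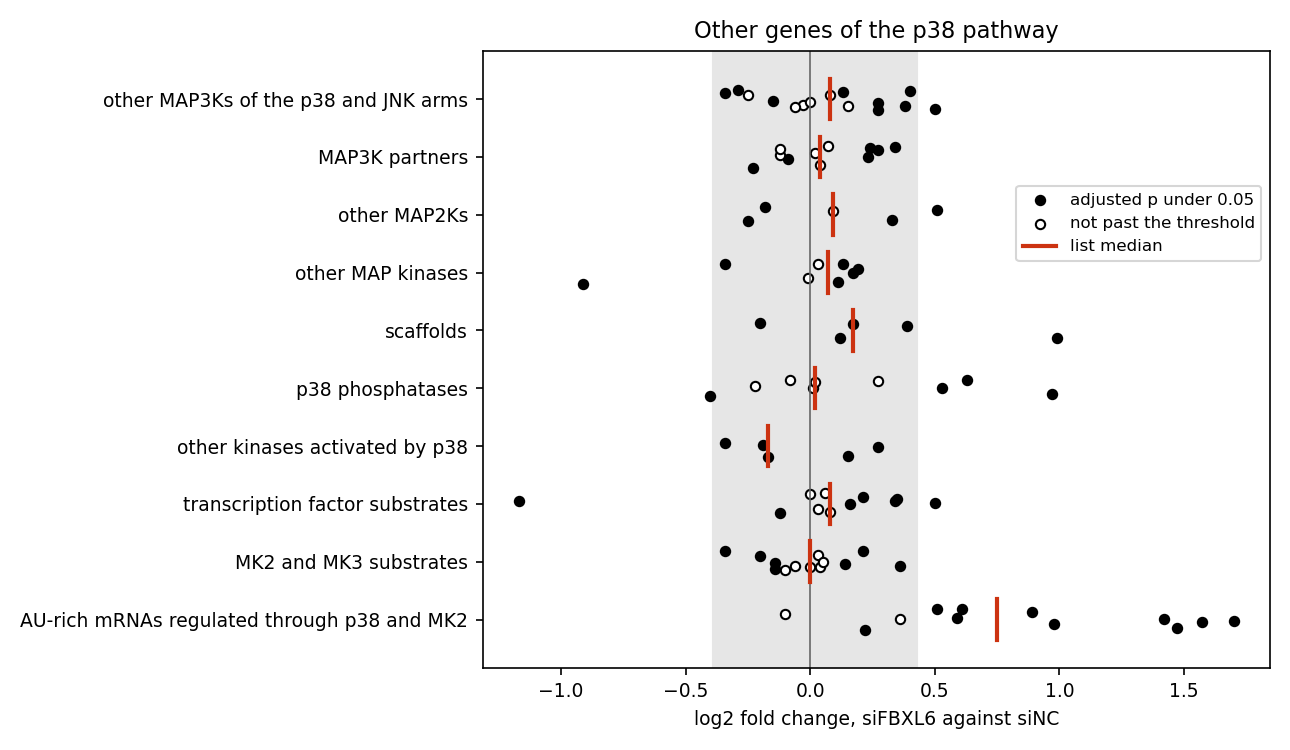
Each point is a gene of the named list, plotted by its log2 fold change of siFBXL6 against siNC, filled where the adjusted p was under 0.05, with the list median as a red line and the 10th to 90th percentile range of all genes tested as a grey band. The median is 0.75 for the AU-rich mRNAs and lies between -0.17 and 0.17 for the other 9 lists.

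Downstream, all 5 other kinases activated by p38 passed (40.2% of all genes did), 2 higher and 3 lower, with a median of -0.17. MKNK2 rose by 0.27, MKNK1 fell by 0.19, and the MSK genes RPS6KA4 and RPS6KA5 had log2 fold changes of 0.15 (adjusted p = 0.0113) and -0.34 (adjusted p = 7.7e-07). RPS6KA4 did not pass when siNC replicate 1 or siFBXL6 replicate 1 was left out, with log2 fold changes of 0.11 and 0.11.

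Transcription factors phosphorylated by p38 gave 7 of 11 past the threshold (63.6%, beside 40.2% of all genes), 5 higher and 2 lower, with a median of 0.08. MEF2C had 8.53, 8.34 and 7.21 CPM in siNC and 3.49, 3.82 and 3.38 in siFBXL6 (log2 fold change -1.17 ± 0.10 SE, adjusted p = 3.19e-12). Its level was less than 50% of the siNC mean in every siFBXL6 library. ATF2 rose by 0.50, ATF1 by 0.35 and DDIT3, which encodes CHOP, by 0.34. ELK1 and USF1 did not pass, with log2 fold changes of 0.06 and 0.00.

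Among substrates of MK2 and MK3, 7 of 13 passed (53.8%, beside 40.2% of all genes), 3 higher and 4 lower, with a median of 0.00. ZFP36, which encodes the mRNA-destabilising protein tristetraprolin, rose from 5.15 ± 0.0936 to 6.63 ± 0.0627 CPM (log2 fold change 0.36, adjusted p = 0.000808). PARN rose by 0.21, PABPC1, the most abundant of the list, rose by 0.14, and CDC25B fell by 0.20. HSPB1, the small heat shock protein HSP27, had a log2 fold change of -0.14 (adjusted p = 0.0082) and LSP1 of -0.34 (adjusted p = 0.0167). HSPB1 did not pass without siNC replicate 2 (-0.12) or siFBXL6 replicate 3 (-0.10), and LSP1 did not pass without siNC replicate 2 (-0.33), siNC replicate 3 (-0.29) or siFBXL6 replicate 3 (-0.22).

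Cytokine and other mRNAs with AU-rich elements, which are regulated through p38 and MK2, had the highest median of the 10 lists, at a log2 fold change of 0.75. Of 12 tested, 10 passed and were higher, and none passed in the other direction. Over all genes tested, 20.5% passed and were higher, and this list too was drawn up with earlier results known. IL1B had 142, 141 and 146 CPM in siNC and 398, 392 and 396 in siFBXL6 (log2 fold change 1.47 ± 0.03 SE, adjusted p = 9.27e-29). CXCL2, a neutrophil-attracting chemokine, had 17.2, 17.7 and 17.0 CPM in siNC and 54.5, 56.0 and 57.7 in siFBXL6 (log2 fold change 1.70 ± 0.04 SE, adjusted p = 6.51e-26). The groups were far apart for both genes in every library. CSF2, the gene for GM-CSF, rose by 1.57, PTGS2, the inducible cyclooxygenase, rose by 0.59 and IL1A rose by 0.51 on the log2 scale. TNF and CCL2 did not pass, at mean levels of 0.180 and 0.227 CPM in siNC. Whether p38 activity had a part in these differences was not tested.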

How the data were processed

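RNA was sequenced from 6 T24 libraries after preparation with a stranded mRNA kit. The authors deposited raw counts per gene for all libraries in a single table. Their methods name Trimmomatic and HISAT2, whereas the submitters' processing notes name fastp (0.23.0) and STAR. Both name featureCounts (Subread 1.5.1) and GRCh38. The annotation release and the strand and multi-mapping settings are not given in the sources used here.

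Counts were filtered with filterByExpr, normalised by TMM and tested with edgeR 4.0.16 (R 4.3.3), with condition as the only term and Benjamini-Hochberg adjustment over the 21298 genes tested. Ratios use unscaled counts. Transcripts were aligned with minimap2 (GENCODE release 44). The genes and lists were chosen with earlier results of these data known. Besides the 9 genes, FBXL6 and ACTB, the text names per list the 3 genes most abundant per kilobase in siNC and the 3 with the largest absolute log2 fold change among those called, and markers that were most abundant or near 0. TNF, CCL2, MAPK8IP1 and the other tested markers were named after their values were seen. Of the listed genes, 2 (MAP3K20 and MAP3K21) were not analysed here. Alternatives covered normalisation, filters, DESeq2 1.42.0, the replicate block, single libraries left out and transcript length.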

Additional observations from a re-analysis of the deposited data

How the results depend on the processing

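The differences of the 9 genes kept their direction under all 13 alternatives run for each (RLE, upper-quartile or no normalisation factors, DESeq2, other filters, the replicate block and each library left out). Calls were lost by 3 of the 8 called genes, in 11 values: MAP3K5 and MAPKAPK2 with library size alone, with upper-quartile factors and without siFBXL6 replicate 2, MAP3K5 also without siNC replicate 2, MAPKAPK2 also without siNC replicate 3 or siFBXL6 replicate 3, and MAPK12 without replicate 1 of either group. Since this contrast chose the genes, calls kept are no sign of stability. Over the alternatives, the log2 fold change ran from 1.25 to 1.46 for MAPK11, from -1.54 to -1.14 for MAP2K6, from 0.41 to 0.57 for MAP2K3 and from 0.08 to 0.14 for MAPK14. With 1 library left out, the difference in the log2 ratio of MAP2K6 to MAP2K3 ran from -2.07 to -1.66, and that of MAPK12 to MAPK14 from -0.01 to 0.08. The genes called across the table numbered 8569, between 7451 and 8298 with 1 library left out, 7692 by DESeq2 and 6599 at an adjusted p under 0.01. Pathway genes called numbered 63, and 58 to 61 with 1 library left out.

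With the replicate block, 8408 genes and 62 pathway genes were called. Over all genes tested, deviations of same-numbered libraries from their group means showed no correlation (-0.011, 0.000 and 0.013). This gives no sign that the numbers pair the libraries. It cannot exclude it, because noise in low counts could hide a small shared deviation. Of the single genes named from the pathway and marker lists and the reference genes, 809 of the alternative values kept their side of the threshold, 19 lost their call and 2 gained it. Of the 19, 10 were for MAPK8IP1 (DESeq2, library size alone, upper-quartile factors, no filter, the replicate block, and each library but siFBXL6 replicate 3 left out), and the others came from leaving out a library, for RPS6KA4, HSPB1, LSP1 and KRT7. PPARG passed with library size alone and with upper-quartile factors. The cause was not tested. Low counts limit MAP2K6 and MAPK11, shared sequence limits MAP2K3, and the shared exons limit MAPK12.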
